A study of Mus musculus with 12 samples.

Results

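Endothelial cells of the mouse striatum were selected from single-cell RNA profiles of tissue enriched for astrocytes, and their RNA was compared between early postnatal mice and mice aged 3 months (3m). A cell counted as endothelial when at least 4 of 6 endothelial genes (Cldn5, Flt1, Pecam1, Kdr, Itm2a and Slco1a4) were detected with at least 1 unique molecular identifier (UMI). It was left out when more than 2 of 5 genes of other cell types were detected, namely the mural cell genes Kcnj8, Higd1b and Pdgfrb, the oligodendrocyte gene Mog and the astrocyte gene Ntsr2. This gave 78 of 3117 filtered cells. They were 12 of 555 cells in postnatal replicate 1, 5 of 723 in postnatal replicate 2, 34 of 1120 in 3m replicate 1 and 27 of 719 in 3m replicate 2. Because these 11 genes chose the cells, their levels are given below as a description and without a test.

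All libraries came from wild type mice. The labels give the strain only as mixed, whereas the methods of the study name male C57BL/6Jax animals for brain tissue, and no transgene or treatment is named in the labels. Striatal tissue was dissociated and passed over magnetic beads against ACSA2, an astrocyte surface antigen, so vascular cells were carried along rather than sought. Each library was 1 droplet capture of cells that the study pooled from several animals, and the 12 deposited samples were sequencing runs of 4 libraries, which left 2 replicates per age. The age labels of the postnatal libraries disagree: the title of replicate 1 names day 7 and its age tag day 3, and the reverse holds for replicate 2, so both were treated as 1 postnatal group. The text of the study gives day 3 for its early striatal cells.

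Endothelial cells line every blood vessel, and those of the brain form the blood-brain barrier. Tight junctions seal the clefts between them, transport proteins carry glucose, amino acids, lipids and hormones across them, efflux pumps return foreign compounds to the blood, and vesicle traffic through the cell is kept low. Wnt signals through beta-catenin induce and keep this state. After birth the vessel network of the brain still grows by sprouting, in which VEGF and Notch set apart migrating tip cells that lay down new basement membrane, and along a mature vessel the cells take on arterial, capillary or venous character.

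The endothelial label held against markers that the rule did not use. All 16 further endothelial markers had UMIs, and together they made up 8466 and 7434 counts per 1000000 UMIs (CPM) of the summed endothelial cells in postnatal replicates 1 and 2, and 18940 and 23020 CPM in 3m replicates 1 and 2. Of the 78 cells, 60 had all 6 rule genes, 15 had 5 and 3 had 4. Just outside the rule, 4 cells had 3 of the 6 genes and at most 2 excluding genes. Among the rule genes, Cldn5, the main claudin of the barrier, stood at 3559 and 4344 CPM postnatally and 3719 and 5093 CPM at 3m. Slco1a4, an organic anion transporter, stood at 259 and 396 CPM postnatally and 1876 and 2076 CPM at 3m. The VEGF receptor Kdr stood at 731 and 1321 CPM and then 680 and 609 CPM, while the VEGF receptor Flt1 stood at 892 and 1668 CPM and then 3022 and 3349 CPM.

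The libraries differed in how deeply these cells were sampled. Their median UMI count per cell was 29519 and 1647 in postnatal replicates 1 and 2 and 5915 and 5504 in 3m replicates 1 and 2. The sums over endothelial cells held 451472, 78692, 244267 and 188527 UMIs in that order. In postnatal replicate 2, 1 cell gave 75.7% of the sum, so the level of a gene in that library was mostly that of 1 cell. The chi-square per degree of freedom between the sums of replicates was 3.73 for the postnatal pair and 2.02 for the 3m pair. What differences between single cells add to this spread was not measured. Barcodes shared between libraries numbered 95 for postnatal replicate 2 and 3m replicate 2, and the shallower of each such pair of cells was removed, which took 46 filtered cells away, 7 of them endothelial by the rule.

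**Figure D1:**
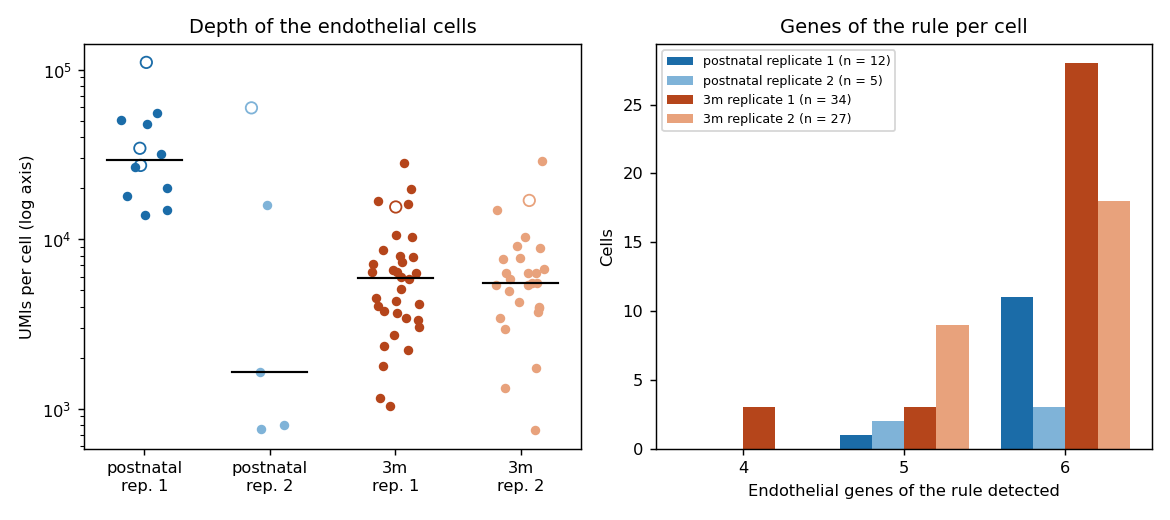
UMIs per endothelial cell by library, with 1 point per cell on a log axis, a line at the median and open circles for cells with over 1% haemoglobin UMIs (left), and number of endothelial cells with 4, 5 or 6 of the rule genes (right). The medians run from 1647 in postnatal replicate 2 to 29519 in postnatal replicate 1, and 60 of the 78 cells have all 6 rule genes.

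RNA of other cell types was present, and some of it differed between the ages. The 10 mural cell genes summed to 310 and 12.7 CPM postnatally, with 4 and 1 genes detected, and to 1895 and 1994 CPM at 3m, with 8 and 7 genes detected. Most of it was Rgs5, with 109 and 0 UMIs postnatally and 380 and 325 UMIs at 3m, while the contractile genes Acta2 and Tagln were at 0 in all 4 libraries. The oligodendrocyte list summed to 24.4 and 25.4 CPM postnatally and 188 and 281 CPM at 3m. Astrocyte genes showed no such order, at 179 and 419 CPM postnatally and 401 and 255 CPM at 3m. Microglial genes stood at 35.4, 12.7, 8.19 and 5.30 CPM, fibroblast genes at 0, 0, 8.19 and 0 CPM, and oligodendrocyte precursor genes at 2.22, 0, 4.09 and 5.30 CPM. Ependymal genes were at 0. Neuronal genes stood at 2.22 and 0 CPM postnatally and 151.5 and 175 CPM at 3m, nearly all of it Stmn2, which is also an arterial marker here. Haemoglobin made up 8.19% and 19.6% of endothelial UMIs postnatally and 2.22% and 5.39% at 3m, and 6 of the 78 cells had over 1% of it each while 64 had none. The rule itself had set aside 79 droplets with endothelial genes and more than 2 excluding genes (20 and 20 postnatal, 24 and 15 at 3m), and every one of them had UMIs of each of the 3 mural genes. The part of other cells' RNA in the changes below was not tested, except where a value without those cells is given.

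The first comparison asked which genes of striatal endothelium change between the first postnatal days and adulthood. Counts were summed over the endothelial cells of each library and compared by edgeR (quasi-likelihood F test), and calls needed an adjusted p (Benjamini-Hochberg, over all genes tested) of 0.05 or less together with a log2 fold change of 1 or more in either direction. Of 3754 genes tested, 633 were called, or 16.9%. There were 363 genes higher at 3m (9.67%) and 270 lower at 3m (7.19%), and over all genes tested the median log2 fold change was -0.00086. In 2161 of the 3754 genes tested, the libraries of the 2 ages did not overlap, so a lack of overlap named below was common. Levels of single genes, here and above, are CPM after scaling by the trimmed mean of M values (TMM). Sums over a list are CPM of all UMIs of the cells without that scaling, so the 2 kinds of level are not on 1 scale. Fold changes are 3m over postnatal on the log2 scale with the standard error (SE) of the fit, and adjusted p-values are those of edgeR. Where a gene had no UMI in 1 age, its fold is a lower bound against a floor of 3 counts over that group, which was 6.66 CPM postnatally and 7.16 CPM at 3m. The count of called genes rested on the libraries, at 314 without postnatal replicate 1, 856 without postnatal replicate 2, 320 without 3m replicate 1 and 181 without 3m replicate 2. In bulk sums of this kind, fewer cells of a vessel segment and less RNA per cell cannot be told apart.

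Several genes of vessel sprouting were lower at 3m. Of the 16 tested genes of the VEGF, apelin and tip cell list that the rule did not use, 9 were called lower, 0 higher and 7 not called. Genes absent at 3m passed the count filter through their postnatal level alone, so no median over the tested genes is given. With no count filter, 10 of 18 were lower and 1 higher. Leaving out postnatal replicate 1, postnatal replicate 2, 3m replicate 1 or 3m replicate 2 gave 7, 9, 8 and 7 genes lower and 0, 1, 0 and 0 higher. The whole list, with the rule genes Kdr and Flt1, summed to 4842 and 6519 CPM postnatally and 4986 and 5363 CPM at 3m. Because Kdr and Flt1 chose the cells, and Flt1 stood higher at 3m, this total does not speak for the other genes of the list. Apln (chrX:48025146-48034853, minus strand), the apelin peptide that sprouting tip cells secrete, was at 682 and 1173 CPM in the postnatal libraries and at 0 in both 3m libraries. It was at least 129.5-fold lower at 3m (adjusted p = 8.74e-06). The gene was detected in 15 of 17 postnatal endothelial cells and in 0 of 61 at 3m, a count that allows detection at that depth in up to 4.92% of cells. In cells with at most 1 endothelial gene, Apln was found in 3.71% postnatally and 31.7% at 3m. The median depth behind these shares was 26800 UMIs in postnatal endothelial cells against 10480 in the other cells, and 5824 against 8704 at 3m.

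Fscn1 (chr5:142960343-142973185, plus strand), the actin bundling protein fascin of filopodia, was at 564 and 446 CPM postnatally and 0 in both 3m libraries, at least 70.5-fold lower (adjusted p = 8.74e-06). Its UMIs were in 13 of 17 postnatal endothelial cells and 0 of 61 at 3m, while cells with at most 1 endothelial gene had it in 39.4% and 46.7%. Trp53i11, which was placed on the tip cell list, was at 231 and 215 CPM and then 0 and 0, at least 31.1-fold lower (adjusted p = 4.50e-05). The adhesion molecule Mcam (CD146) was at 76.9 and 99.1 CPM and then 0 and 0, at least 12.3-fold lower (adjusted p = 0.000694). Cxcr4, a chemokine receptor, was at 69.2 and 297 CPM and then 0 and 0, at least 25.6-fold lower (adjusted p = 0.00432). For each of these 5 genes the postnatal and 3m libraries did not overlap, which was also so for 2161 of the 3754 genes tested. The other 4 called genes of the list, named after their values were seen, were the vasoactive peptide Adm, the semaphorin receptor Plxnd1, the apelin receptor Aplnr and Angpt2, a ligand of the Tie2 receptor. Aplnr, for example, was at 74.4 and 66.1 CPM postnatally and 12.6 and 5.54 CPM at 3m, a change of -2.86 ± 0.59 (SE; adjusted p = 0.00478).

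Genes of the basement membrane moved the same way. This list covers laminins, type IV collagen, nidogens, their folding enzymes and the integrins that bind them. Of 20 tested genes, 14 were called lower, 2 higher and 4 not called. With no count filter, 14 of 22 were lower and 2 higher. Lamb1, absent at 3m, passed that filter through its postnatal level alone, so no median over the tested genes is given. The numbers lower were 8, 13, 8 and 6, and the numbers higher 0, 2, 2 and 0, without postnatal replicate 1, postnatal replicate 2, 3m replicate 1 and 3m replicate 2. Nid1 (chr13:13437551-13512269, plus strand), which links laminin to collagen, was at 367 and 413 CPM postnatally and 33.6 and 27.7 CPM at 3m. It fell by 3.60 ± 0.35 (adjusted p = 3.81e-05).

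Lama4, the alpha chain of an endothelial laminin, was at 213 and 231 CPM and then 21.0 and 22.1 CPM, and it fell by 3.30 ± 0.40 (adjusted p = 0.00013). Itga4, an integrin subunit, was at 197 and 215 CPM and then 16.8 and 16.6 CPM, a fall of 3.55 ± 0.43 (adjusted p = 0.00014). Col4a2, one of the chains of type IV collagen, was at 821 and 1074 CPM and then 256 and 266 CPM, and it fell by 1.82 ± 0.26 (adjusted p = 0.000395), a call lost without 3m replicate 2 (adjusted p = 0.0526). The laminin chain Lamb1 was at 105.1 and 198 CPM and then 0 and 0, at least 21.2-fold lower (adjusted p = 0.000443). No postnatal value of these 5 genes overlapped a 3m value. The 2 genes called higher were named after their values were seen. They were Lamb2, another laminin chain, at 35.9 and 16.5 CPM and then 92.3 and 149.5 CPM (1.84 ± 0.48, adjusted p = 0.0165), and the laminin-binding integrin Itga6, at 43.6 and 99.1 CPM and then 189 and 221 CPM (1.93 ± 0.38, adjusted p = 0.00363). The list as a whole summed to 12010 and 14050 CPM postnatally and 5457 and 6620 CPM at 3m.

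Few cell cycle genes were abundant enough to test. Only 4 of 20 passed the count filter, of which 3 were called lower and 1, the replication clamp Pcna (named after its values were seen), was not, at 79.5 and 99.1 CPM and then 50.4 and 60.9 CPM. The number lower was 0 of 1 tested without postnatal replicate 1, 9 of 10 without postnatal replicate 2, 4 of 9 without 3m replicate 1 and 2 of 10 without 3m replicate 2, and with no count filter it was 11 of 20. Cdk1, the kinase that drives entry into mitosis, was at 103 and 66.1 CPM and then 0 and 0, at least 11.8-fold lower (adjusted p = 0.000514). Mcm6, a subunit of the replicative helicase, was at 97.4 and 132 CPM and then 12.6 and 5.54 CPM, a fall of 3.38 ± 0.57 (adjusted p = 0.00133, and 0.0578 without 3m replicate 2). Ube2c, which tags mitotic proteins for destruction, was at 69.2 and 149 CPM and then 0 and 16.6 CPM, a fall of 3.46 ± 0.80 (adjusted p = 0.00938, and 0.0956 without 3m replicate 1).

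The share of cycling cells was measured after each cell had been thinned to 2000 UMIs, with at least 3 UMIs of the cell cycle list. It was 2 of 12 endothelial cells in postnatal replicate 1, 0 of 2 in postnatal replicate 2, 0 of 31 in 3m replicate 1 and 0 of 24 in 3m replicate 2. The difference in mean share was -8.33 percentage points, and an exact two-sided permutation test over libraries gave p = 1, where 0.333 is the smallest p that 2 against 2 libraries allow. Without thinning, the shares were 9 of 12, 2 of 5, 2 of 34 and 3 of 27. In cells with UMIs of the oligodendrocyte genes Mog and Mbp, which served as background, thinned shares at 3m were 0 of 580 and 0 of 303. With the cell rule set at 3 of 6 endothelial genes the difference was -18.6 points, and with the excluding genes ignored it was -19.2 points (exact permutation p = 0.333 each).

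Most genes of the insulin-like growth factor and imprinted growth list were too low to test, with 4 of 15 tested, 1 higher and 1 lower, and the numbers of genes lower were 0, 3, 2 and 1 and of genes higher 1, 1, 0 and 0 without each library in the order used above. Igfbp4, a binding protein of insulin-like growth factors, was at 392 and 182 CPM postnatally and 0 in both 3m libraries, at least 40.1-fold lower (adjusted p = 5.49e-05). It was found in 15 of 17 postnatal endothelial cells and 0 of 61 at 3m, and in 24.7% and 2.78% of cells with at most 1 endothelial gene. Igf1r, the receptor, was at 190 and 512 CPM and then 604 and 742 CPM (1.22 ± 0.38, adjusted p = 0.0396). Its call was lost without postnatal replicate 1 (adjusted p = 0.508), 3m replicate 1 (0.0734) or 3m replicate 2 (0.463).

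Barrier genes did not move as 1 block. Junctional proteins gave 1 of 11 tested genes called higher and 0 lower, at a median of 0.46. The whole list, with the rule genes on it, summed to 6042 and 5744 CPM postnatally and 7344 and 8927 CPM at 3m. Because the rule genes chose the cells, this total is a description and does not speak for the 11 tested genes. The called gene was Ocln (chr13:100496507-100552718, minus strand), the tight junction protein occludin, at 146 and 149 CPM and then 277 and 365 CPM (1.12 ± 0.29, adjusted p = 0.0165). Its call was lost without postnatal replicate 1 (adjusted p = 0.181), 3m replicate 1 (0.0652) or 3m replicate 2 (0.349). Without a scaling factor, 3 junction genes were called higher.

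Transporters split in both directions. Of 22 tested genes, 7 were called higher, 6 lower and 9 not called, with a median of -0.39. The higher and lower numbers were 5 and 6 without postnatal replicate 1, 7 and 6 without postnatal replicate 2, 6 and 3 without 3m replicate 1 and 4 and 0 without 3m replicate 2. Slc6a6, the taurine transporter, was at 236 and 82.6 CPM postnatally and 1666 and 1794 CPM at 3m, and it rose by 3.15 ± 0.33 (adjusted p = 5.42e-05). Abcb1a, the efflux pump P-glycoprotein, was at 195 and 347 CPM and then 1154 and 1395 CPM, a rise of 2.41 ± 0.30 (adjusted p = 0.000194). Both sets of 3m values lay far above the postnatal ones. Abcc4, another efflux pump, was at 15.4 and 16.5 CPM and then 151 and 183 CPM (3.37 ± 0.47, adjusted p = 0.000359).

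The transporters that fell included carriers of iron, monocarboxylates, amino acids and lipids. Tfrc, the transferrin receptor, was at 897 and 1668 CPM postnatally and 311 and 221 CPM at 3m, and it fell by 2.19 ± 0.33 (adjusted p = 0.000583, and 0.066 without 3m replicate 2). Slc16a1, the lactate and ketone carrier MCT1, was at 1118 and 1767 CPM and then 453 and 349 CPM, a fall of 1.79 ± 0.28 (adjusted p = 0.00086, and 0.0996 without 3m replicate 2). Slc7a5, the large neutral amino acid carrier LAT1, was at 1085 and 1453 CPM and then 374 and 531.5 CPM, a fall of 1.46 ± 0.27 (adjusted p = 0.00218). Without 3m replicate 1 or 3m replicate 2 its adjusted p was 0.0886 or 0.0688. In each of these 3 genes both postnatal libraries lay above both 3m libraries. All 3 are also on the capillary list, of which 10 genes were tested, 1 was higher and 4 were lower, while 0 were lower without 3m replicate 2 and 2 without 3m replicate 1.

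Genes of caveolae, the membrane pits of transcytosis, gave 4 of 10 tested genes higher and 1 lower at 3m, at a median of 1.06. Without 3m replicate 2, 1 was higher and 0 lower. The coat protein gene Cavin2 was at 185 and 116 CPM and then 655 and 587 CPM (1.89 ± 0.28, adjusted p = 0.000514). Cav2, a caveolin, was at 144 and 99.1 CPM and then 382 and 421 CPM (1.58 ± 0.28, adjusted p = 0.00182), and Clic4, a chloride channel family protein, was at 105.1 and 132 CPM and then 365 and 437 CPM (1.84 ± 0.29, adjusted p = 0.000869). Neither call held without 3m replicate 2 (adjusted p = 0.0812 and 0.0572). The gene that fell was Mfsd2a (chr4:122946850-122961188, minus strand), the lipid transporter that restrains transcytosis at the barrier. It was at 933 and 1222 CPM postnatally and 306 and 459.5 CPM at 3m, a fall of 1.47 ± 0.27 (adjusted p = 0.00244, with 0.097 without 3m replicate 1 and 0.0607 without 3m replicate 2).

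Among the Wnt and beta-catenin genes, 5 of 19 tested were called higher, 1 lower and 13 not, at a median of 0.53. The higher count was 3, 5, 2 and 1 and the lower count 1, 1, 1 and 0 without postnatal replicate 1, postnatal replicate 2, 3m replicate 1 and 3m replicate 2. Lef1 (chr3:131110471-131224356, plus strand), a transcription factor through which beta-catenin acts, was at 177 and 132 CPM postnatally and 604 and 498 CPM at 3m. It rose by 1.74 ± 0.27 (adjusted p = 0.000835). Sox17, a transcription factor of arterial and barrier endothelium, was at 197 and 82.6 CPM and then 441 and 465 CPM (1.42 ± 0.31, adjusted p = 0.006, and 0.144 without 3m replicate 2). Reck, a membrane protein of the Wnt7 receptor complex, was low, at 5.13 and 16.5 CPM and then 63.0 and 83.0 CPM (3.31 ± 0.65, adjusted p = 0.00357). Its adjusted p was 0.323, 0.153 and 0.378 without postnatal replicate 1, 3m replicate 1 and 3m replicate 2. Apcdd1, a Wnt inhibitor, was at 100 and 198 CPM and then 37.8 and 27.7 CPM, a fall of 1.87 ± 0.49 (adjusted p = 0.0179, and 0.213 without 3m replicate 2).

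Endothelial transcription factors gave 6 of 18 tested genes higher and 1 lower, with 4, 5, 3 and 1 higher and 0, 1, 0 and 0 lower without each library in turn, in the same order. Epas1, the hypoxia-inducible factor HIF-2 alpha, was at 313 and 396 CPM and then 944 and 1024 CPM (1.53 ± 0.25, adjusted p = 0.00113, and 0.083 without 3m replicate 2). Gata2 was at 28.2 and 0 CPM and then 138.5 and 138 CPM (2.52 ± 0.51, adjusted p = 0.00395, and 0.075 without 3m replicate 2). Receptors and targets of the Tie, TGF-beta and BMP pathways gave 4 of 11 tested genes higher and 0 lower, at a median of 0.75, with 2, 5, 3 and 2 higher without each library. The angiopoietin receptor Tek (Tie2) was at 92.3 and 82.6 CPM postnatally and 382 and 371 CPM at 3m (2.05 ± 0.29, adjusted p = 0.000404).

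The BMP receptor Bmpr2 was at 174 and 116 CPM and then 554 and 542.5 CPM (1.78 ± 0.27, adjusted p = 0.000698), and its partner Acvrl1 (ALK1) was at 113 and 165 CPM and then 332 and 471 CPM (1.67 ± 0.31, adjusted p = 0.00263). Both receptors were higher in each 3m library than in either postnatal one. The Acvrl1 call was lost without postnatal replicate 1 (adjusted p = 0.116) or 3m replicate 2 (0.135). Id2, a target of BMP signals, was at 25.6 and 49.6 CPM and then 113 and 116 CPM (1.93 ± 0.46, adjusted p = 0.0106). Its call was lost without postnatal replicate 1 (adjusted p = 0.371), 3m replicate 1 (0.103) or 3m replicate 2 (0.152), and its change was -0.23 when cells with at least 3 of the 6 endothelial genes were taken. Notch pathway genes gave 1 higher and 1 lower of 8 tested. The Notch target Hes1 was at 661.5 and 2081 CPM and then 378 and 304.5 CPM (-1.88 ± 0.43, adjusted p = 0.00885), and without postnatal replicate 2 its change was -0.98, short of the fold threshold, while without 3m replicate 2 its adjusted p was 0.202. The ligand Jag2 was at 51.3 and 16.5 CPM and then 138.5 and 116 CPM (1.496 ± 0.43, adjusted p = 0.0282), a call lost without postnatal replicate 1 (adjusted p = 0.0573), 3m replicate 1 (0.241) or 3m replicate 2 (0.187). The number of Notch genes lower was 2, 0, 1 and 0, and of genes higher 0, 1, 0 and 0, without each library in that order.

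Some arterial genes were absent postnatally and present at 3m. Of 13 listed genes, 7 were tested, 4 were called higher and 0 lower. Genes absent postnatally passed the count filter through their level at 3m alone, so no median over the tested genes is given, and with no count filter 7 of 12 were higher and 0 lower. Without each library, 3, 5, 3 and 4 genes were higher and 0, 1, 0 and 0 lower. Gkn3 (chr6:87383256-87388935, minus strand), a secreted protein known from arterial brain endothelium, was at 0 in both postnatal libraries and at 873 and 371 CPM at 3m. It was at least 93.4-fold higher at 3m (adjusted p = 5.42e-05). The transcript was concentrated in few cells: 13 of 61 endothelial cells at 3m had it, and 1 cell gave 45.7% of its UMIs in 3m replicate 1 and 67.2% in 3m replicate 2. With 0 of 17 cells, the postnatal group allows detection at its depth in up to 17.6% of cells.

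Alpl, tissue non-specific alkaline phosphatase, was at 0 postnatally and 168 and 188 CPM at 3m, at least 26.7-fold higher (adjusted p = 9.91e-05), and it was spread over 26 of 61 cells. Bmx, a tyrosine kinase of arterial endothelium, was at 0 postnatally and 79.7 and 72.0 CPM at 3m, at least 11.4-fold higher (adjusted p = 0.000694), a call lost without postnatal replicate 1 (adjusted p = 0.0869) or 3m replicate 2 (0.11). Stmn2, a tubulin-binding protein best known from neurons and also on the neuronal list, was at 2.56 and 0 CPM and then 147 and 177 CPM (5.86 ± 0.68, adjusted p = 0.000116). Its UMIs came from 8 of 61 cells at 3m, against 0.928% of cells with at most 1 endothelial gene.

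Venous genes gave 4 of 7 tested genes higher and 0 lower, at a median of 2.15, with 1, 5, 1 and 4 higher and 1, 0, 1 and 0 lower without each library in the order above. Nr2f2, the transcription factor COUP-TFII that specifies veins, was at 17.95 and 16.5 CPM and then 151 and 111 CPM (2.86 ± 0.49, adjusted p = 0.00143, with 0.0617 without postnatal replicate 1 and 0.0712 without 3m replicate 1). The lysosomal protease gene Ctsc was at 12.8 and 0 CPM and then 147 and 88.6 CPM (3.39 ± 0.60, adjusted p = 0.00169, and 0.147 without 3m replicate 1). Flrt2, an adhesion protein, was at 17.95 and 49.6 CPM and then 134 and 66.4 CPM (2.15 ± 0.57, adjusted p = 0.0181), a call lost without postnatal replicate 1 (adjusted p = 0.5), 3m replicate 1 (0.617) or 3m replicate 2 (0.0737). These 3 venous genes were higher in each 3m library than in either postnatal one.

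Of the 10 capillary genes, all tested, 1 was called higher and 4 lower at 3m, with 2, 1, 1 and 0 higher and 5, 4, 2 and 0 lower without each library. The 3 lists were also counted per cell at equal depth. After thinning to 2000 UMIs, 12 of 55 cells at 3m had at least 3 UMIs of the arterial list, 54 had that many of the capillary list and 15 of the venous list, and 0 cells reached it for both arterial and venous genes. In postnatal replicate 1, 1 of 12 cells reached it for arterial, 12 for capillary and 7 for venous genes, and in postnatal replicate 2, 0, 2 and 2 of 2 cells did. No postnatal cell reached it for both arterial and venous genes either. With so few postnatal cells, the shares of vessel segments were not compared between ages.

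**Figure D2:**
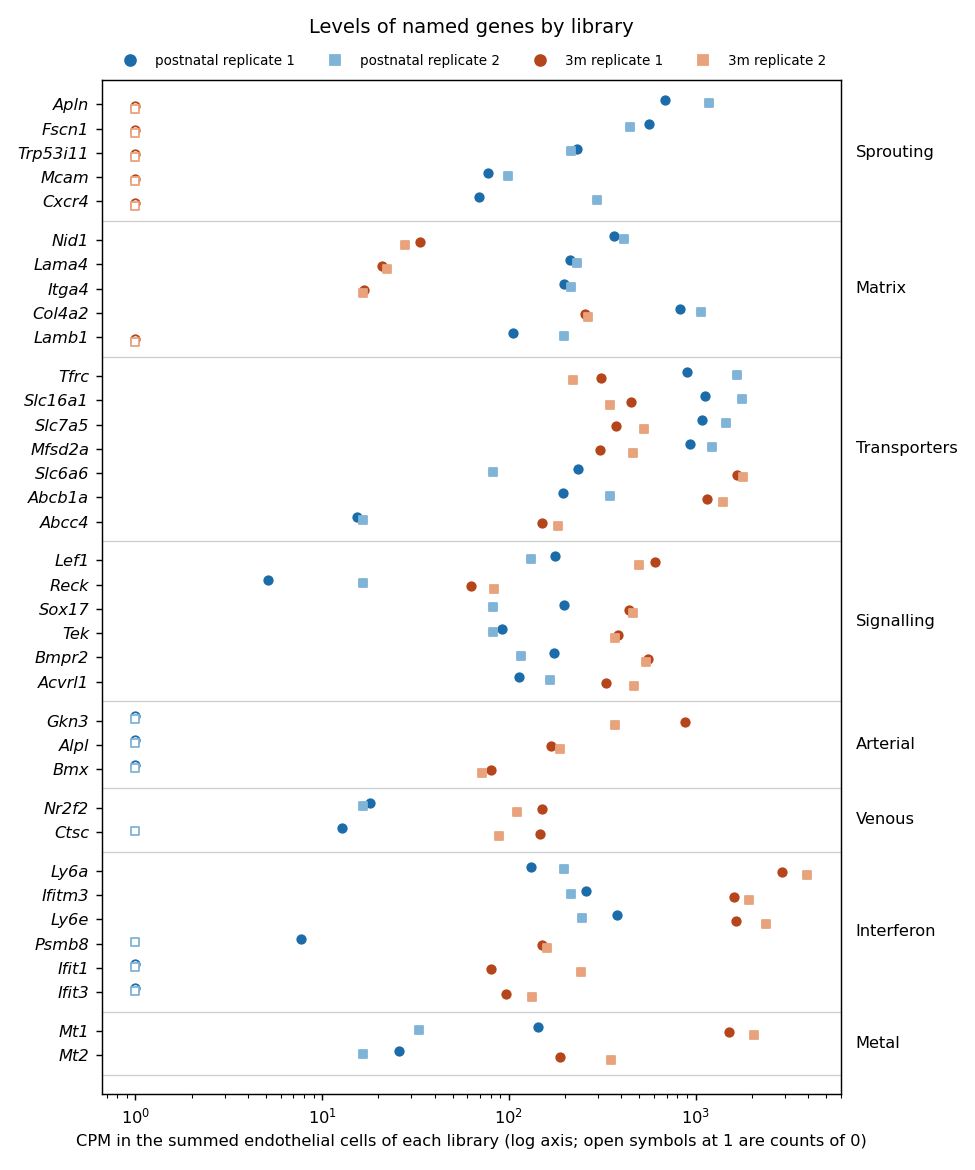
Levels of named genes in the summed endothelial cells of each library, in CPM on a log axis, grouped by role, with 1 symbol per library and open symbols at 1 for a count of 0. Sprouting genes such as Apln (682 and 1173 CPM postnatally, 0 at 3m) lie left at 3m, and arterial and interferon genes such as Gkn3 (0 postnatally, 873 and 371 CPM at 3m) lie right.

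Among the pathway and zonation lists, the interferon response had the highest share of calls. All 22 tested genes of the MHC class I and interferon list, out of 28 listed, were called higher at 3m and 0 lower. Genes absent postnatally, such as Ifit1, passed the count filter through their level at 3m alone, so no median over the tested genes is given. The count of genes higher was 10, 22, 17 and 8 without postnatal replicate 1, postnatal replicate 2, 3m replicate 1 and 3m replicate 2. With no count filter it was 23 of 28. In the 55 cells without any excluding gene it was 15 of 17 tested, and in cells with at most 1% haemoglobin it was 20 of 22. The list summed to 1661 and 1525 CPM postnatally and 10210 and 13240 CPM at 3m. MHC class I molecules show peptides to T cells, and interferons induce them together with antiviral effectors.

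Ly6a (chr15:74994877-74998031, minus strand), the surface protein Sca-1, was at 131 and 198 CPM postnatally and 2900 and 3969 CPM at 3m. It rose by 4.53 ± 0.33 (adjusted p = 8.02e-06). It was detected in 11 of 17 postnatal and 61 of 61 adult endothelial cells, against 0 of 1185 and 0.870% of cells with at most 1 endothelial gene. Ifitm3, an antiviral membrane protein, was at 259 and 215 CPM and then 1603 and 1927 CPM (2.84 ± 0.27, adjusted p = 3.45e-05). Ly6e, a relative of Ly6a, was at 379.5 and 248 CPM and then 1649 and 2392 CPM (2.58 ± 0.29, adjusted p = 0.000103). Psmb8, a subunit of the immunoproteasome that trims peptides for MHC class I, was at 7.69 and 0 CPM and then 151 and 160.5 CPM (4.44 ± 0.58, adjusted p = 0.00026). Each of these genes lay higher in both 3m libraries, without overlap.

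The antiviral genes Ifit1 and Ifit3 and the immunity-related GTPase Iigp1 had no UMI in 17 postnatal endothelial cells. Ifit1 (chr19:34640871-34650009, plus strand) was at 79.7 and 244 CPM at 3m, at least 24.3-fold higher (adjusted p = 0.00118), and its UMIs lay in 19 of 61 cells. Ifit3 (chr19:34583531-34588731, plus strand) was at 96.5 and 133 CPM, at least 17.2-fold higher (adjusted p = 0.000346), and Iigp1 had the same values and the same bound. The calls of Ifit3 and Iigp1 were lost without 3m replicate 2 (adjusted p = 0.0526 for each), and that of Ifit1 without postnatal replicate 1 (0.0946) or 3m replicate 2 (0.11).

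Interferon-stimulated genes are known to carry a response element that binds STAT and IRF factors. Its core letters GAAANNGAAA were searched on both strands of the RefSeq promoters of build GRCm38.p6, from 250 bases before to 50 bases after the gene start, with overlapping matches allowed. They were in 1131 of 32851 promoters (3.44%). Of the 22 tested interferon genes, 17 had a promoter entry and 10 of these held the letters. The 2 promoters below are shown because both genes were absent postnatally and present at 3m. Capitals mark the matches, which lie on the opposite strand and so read reversed and complemented here, and begin 104 and 85 bases before the start of Ifit1 (chr19:34640639-34640938, plus strand) and 156 and 122 bases before the start of Ifit3 (chr19:34583279-34583578, plus strand). A match describes the letters and was not a measurement of binding.
Ifit1: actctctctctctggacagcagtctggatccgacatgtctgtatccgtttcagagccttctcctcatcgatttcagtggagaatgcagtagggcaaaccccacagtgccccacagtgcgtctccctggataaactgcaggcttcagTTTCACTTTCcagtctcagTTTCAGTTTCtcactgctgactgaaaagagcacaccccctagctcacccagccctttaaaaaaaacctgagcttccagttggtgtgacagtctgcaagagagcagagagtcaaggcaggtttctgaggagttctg
Ifit3: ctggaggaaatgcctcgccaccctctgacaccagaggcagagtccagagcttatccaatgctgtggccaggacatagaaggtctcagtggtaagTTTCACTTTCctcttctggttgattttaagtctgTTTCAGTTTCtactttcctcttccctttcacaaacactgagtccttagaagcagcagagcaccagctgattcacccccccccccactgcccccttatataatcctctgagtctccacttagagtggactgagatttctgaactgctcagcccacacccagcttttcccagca

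Metallothioneins are small proteins that bind zinc and copper. Of 3 tested genes, 2 were called higher. Mt1 (chr8:94179082-94180327, plus strand) was at 144 and 33.0 CPM postnatally and 1507 and 2065 CPM at 3m, a rise of 3.91 ± 0.37 (adjusted p = 3.45e-05). Mt2 (chr8:94172664-94173568, plus strand) was at 25.6 and 16.5 CPM and then 189 and 354 CPM, a rise of 3.43 ± 0.47 (adjusted p = 0.000346). Mt3, named after its values were seen, was at 7.69 and 82.6 CPM and then 113 and 11.1 CPM, where the ages overlapped (1.80 ± 0.97, adjusted p = 0.232). Both calls were lost when cells with at least 3 of the 6 endothelial genes were taken (adjusted p = 0.375 for Mt1 and 0.195 for Mt2), while the count of genes higher was 2, 3, 2 and 2 without each library. Mt1 RNA was common in all cells, with UMIs in 90.4% of cells with at most 1 endothelial gene at 3m, against 88.5% of endothelial cells, so its presence in a single cell is not above background. Metal response elements, with the core letters TGCACNC or TGCGCNC, were in 8444 of 32851 promoters (25.7%) and in those of all 3 metallothioneins. The promoters of the pair that rose are shown with matches on either strand in capitals, beginning 23 bases before and 2 and 20 bases after the start of Mt1 (chr8:94178839-94179138, plus strand), and 223, 128 and 50 bases before and 4 after that of Mt2 (chr8:94172368-94172667, plus strand).
Mt1: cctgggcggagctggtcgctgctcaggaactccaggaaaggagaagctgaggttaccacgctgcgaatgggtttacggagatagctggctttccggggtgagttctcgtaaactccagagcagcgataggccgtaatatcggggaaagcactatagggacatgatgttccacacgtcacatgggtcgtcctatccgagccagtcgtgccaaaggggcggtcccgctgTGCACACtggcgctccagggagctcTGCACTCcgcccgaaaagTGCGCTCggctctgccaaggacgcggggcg
Mt2: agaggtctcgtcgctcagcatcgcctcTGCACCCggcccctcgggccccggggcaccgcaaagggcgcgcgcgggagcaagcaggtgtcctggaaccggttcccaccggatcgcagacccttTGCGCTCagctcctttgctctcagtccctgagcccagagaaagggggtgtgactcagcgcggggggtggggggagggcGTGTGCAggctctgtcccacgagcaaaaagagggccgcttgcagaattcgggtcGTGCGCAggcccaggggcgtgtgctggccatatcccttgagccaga

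Genes of haemostasis, vessel tone and leucocyte adhesion gave 3 higher and 2 lower of 12 tested, and the higher count was 2, 6, 3 and 1 and the lower count 1, 2, 2 and 0 without each library. Plat, tissue plasminogen activator, was at 59.0 and 116 CPM and then 151 and 232.5 CPM (1.44 ± 0.39, adjusted p = 0.0201), a call lost without postnatal replicate 1 (adjusted p = 0.506) or 3m replicate 2 (0.401). Thbd, the anticoagulant thrombomodulin, was at 33.3 and 0 CPM and then 130 and 183 CPM (2.44 ± 0.50, adjusted p = 0.0046, and 0.125 without 3m replicate 2). Pltp, a phospholipid transfer protein, was at 1897 and 1288 CPM and then 4218 and 4274 CPM (1.39 ± 0.27, adjusted p = 0.00355, and 0.133 without 3m replicate 2). In these 3 genes the ages did not overlap.

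Among 16 tested immediate early and stress genes, which respond to dissociation, 2 were called higher and 2 lower. The 2 higher, named after their values were seen, were the heat shock genes Hspa1a, at 2.56 and 0 CPM and then 361 and 387.5 CPM, and Hspa1b, at 2.56 and 16.5 CPM and then 319 and 459.5 CPM. The 2 lower, named in the same way, were the transcription factors Atf3 and Nr4a1, and without 3m replicate 2 only 1 gene was lower. The list summed to 3664 and 7040 CPM postnatally and 6444 and 5474 CPM at 3m, so its total did not separate the ages.

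**Figure D3:**
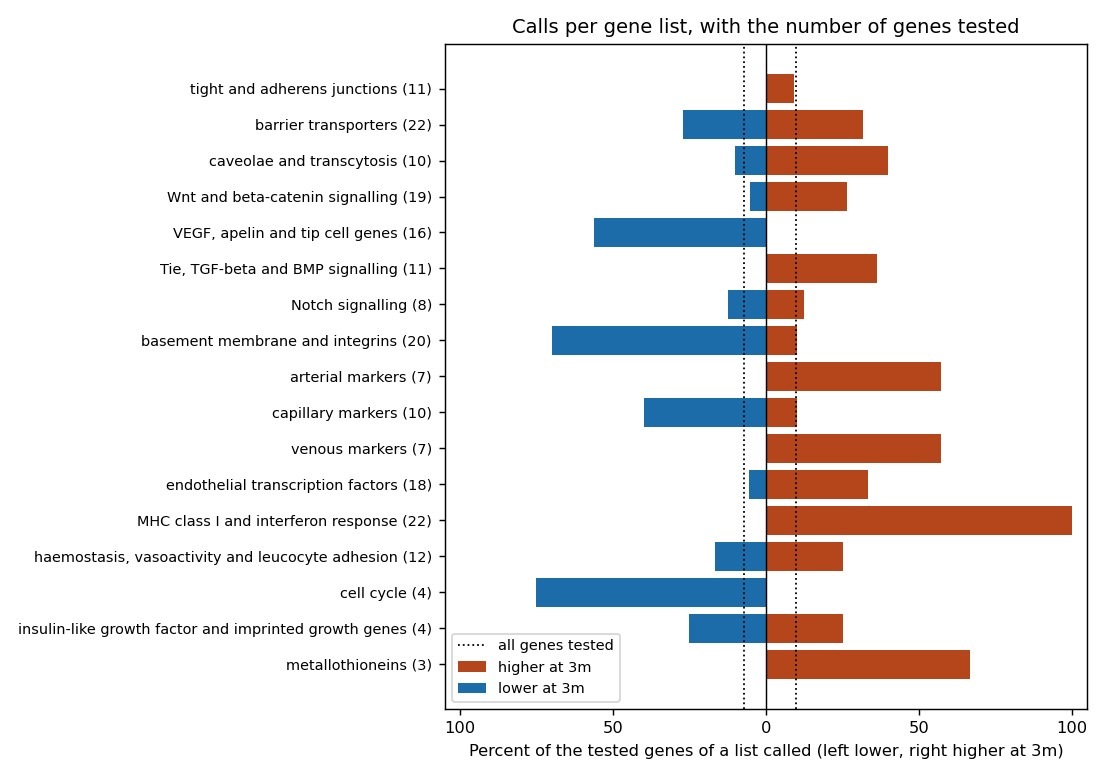
Percent of the tested genes of each list that were called lower (left) or higher (right) at 3m, with the number tested in brackets and dotted lines at the share over all genes (7.19% and 9.67%). All 22 tested interferon genes are higher, while matrix (14 of 20) and tip cell genes (9 of 16) lie to the left.

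Outside the lists, the greatest rises among genes more abundant in endothelial than in other cells of the same library included Itih5 (chr2:10153571-10256529, plus strand), a protein that stabilises hyaluronan in the matrix. It was at 0 and 16.5 CPM postnatally and 839 and 814 CPM at 3m (8.18 ± 0.60, adjusted p = 8.02e-06), and was detected in 1 of 17 and 52 of 61 endothelial cells, against 24.4% and 26.6% of cells with at most 1 endothelial gene. Degs2, a sphingolipid desaturase, was at 0 postnatally and 306 and 310 CPM at 3m, at least 46.3-fold higher (adjusted p = 2.90e-05). The serine protease gene Prss23 was at 0 and then 269 and 227 CPM, at least 37.2-fold higher (adjusted p = 3.45e-05). Fmo2, a flavin monooxygenase, was at 0 and then 193 and 244 CPM, at least 32.8-fold higher (adjusted p = 5.42e-05). Sp100, a nuclear body protein that interferons induce, was at 0 and then 159.5 and 244 CPM, at least 30.3-fold higher (adjusted p = 0.000103). These 5 calls held without each library in turn.

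The greatest falls chosen the same way included Htra3, a secreted protease, at 297 and 149 CPM postnatally and 0 at 3m, at least 31.1-fold lower (adjusted p = 6.63e-05). Fgfbp1, which releases fibroblast growth factors from the matrix and is a known Wnt target of brain endothelium, was at 123 and 347 CPM and then 0, at least 32.8-fold lower (adjusted p = 0.000694). The phosphatase gene Dusp2 was at 113 and 165 CPM and then 0, at least 19.4-fold lower (adjusted p = 0.000321). Ackr2, a scavenging chemokine receptor, was at 76.9 and 149 CPM and then 0, at least 15.8-fold lower (adjusted p = 0.000896). Each was absent from all 61 adult endothelial cells, and in postnatal replicate 2 a single cell gave most of the UMIs, at 77.8% for Htra3, 85.7% for Fgfbp1, 60.0% for Dusp2 and 77.8% for Ackr2.

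The second comparison set the change with age in endothelial cells against that in the sum of all other filtered cells of the same libraries. That sum is a mixture whose makeup differed between the ages. Its oligodendrocyte list stood at 329 and 102 CPM postnatally and 29560 and 31350 CPM at 3m, its astrocyte list at 14290 and 18200 CPM and then 8609 and 10680 CPM, and its cell cycle list at 1158 and 1716 CPM and then 104 and 227 CPM. A change within a cell type and a change of the mixture cannot be told apart in the other cells, and this holds for every difference between the classes given here. A term for cell class by age, with the library as a block, was fitted to 8 sums. The term was called for 848 of 13218 genes, or 6.42%, at the same thresholds. Because the other cells hold the 79 droplets with both endothelial and mural RNA, the fit was repeated without them, and 647 genes were called both ways with the same sign, 317 with a more positive change in endothelial cells and 330 with a more negative one. The first count was 671 and 985 without postnatal replicates 1 and 2, and 355 and 238 without 3m replicates 1 and 2. Of the 69 named genes, 28 were called both ways, and 12 of these were called without each library in turn. For a gene at 0 in 1 age the fitted difference depends on the prior count, so levels are given.

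Alpl, Ctsc and Stmn2 were higher at 3m in endothelial cells and lower at 3m in the sum of the other cells, with the mixed droplets kept or left out. Levels in the other cells are given here without those droplets, and the adjusted p of a difference with them. Alpl, gained by endothelial cells, was at 15.8 and 15.6 CPM in the other cells postnatally and 2.07 and 5.13 CPM at 3m, where it fell by 2.15 (adjusted p of the difference = 7.28e-14). Ctsc rose by 3.39 in endothelial cells and fell by 1.60 in the others, from 34.1 and 42.7 CPM to 16.7 and 8.55 CPM (1.66e-09). Stmn2 was at 21.9 and 32.7 CPM in the other cells postnatally and 1.38 and 1.71 CPM at 3m (2.18e-18). The sprouting genes Fscn1, Mcam and Apln, which were at 0 in adult endothelial cells, had UMIs in the other cells at both ages. Fscn1 was at 78.0 and 72.9 CPM there postnatally and 191 and 162 CPM at 3m (adjusted p of the difference = 4.71e-28), Mcam at 13.2 and 18.7 CPM and then 39.7 and 50.3 CPM (5.85e-08), and Apln at 3.96 and 5.30 CPM and then 55.8 and 58.0 CPM (4.16e-26). Their values in the other cells depend on the mixed droplets, since with these kept none of the 3 changed by the fold threshold there (0.62, 0.59 and -0.47). Cxcr4 was lower in the other cells too, at 7.57 and 8.45 CPM and then 3.68 and 2.85 CPM, and Trp53i11 was at 2.07 and 6.48 CPM and then 2.99 and 3.13 CPM.

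In 5 others of the 12 genes the change in the other cells was under the fold threshold with the mixed droplets left out. Htra3 (adjusted p of the difference = 2.27e-05) stood there at 6.88 and 6.09 CPM postnatally and 10.7 and 10.8 CPM at 3m, a change of 0.74, against -2.09 with those droplets kept. Itih5 rose by 8.11 ± 0.75 more in endothelial cells (adjusted p = 7.28e-24), Ifitm3 by 3.43 ± 0.43 more (9.12e-13), Nr2f2 by 3.43 ± 0.61 (2.42e-06) and Lef1 by 2.24 ± 0.42 (6.29e-06). With the mixed droplets kept, metallothioneins rose in both classes, by 1.90 for Mt1 and 1.05 for Mt2 in the other cells (1.71 and 0.85 without those droplets, the second under the fold threshold), and their differences of 2.17 ± 0.58 (adjusted p = 0.00453) and 2.35 ± 0.57 (0.0012) were among the 16 that were lost without at least 1 library. Over all 647 genes, 206 were also called between ages within endothelial cells, and 38 of these had a called change of the opposite sign in the other cells with the mixed droplets kept, and 61 with them left out.

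**Figure D4:**
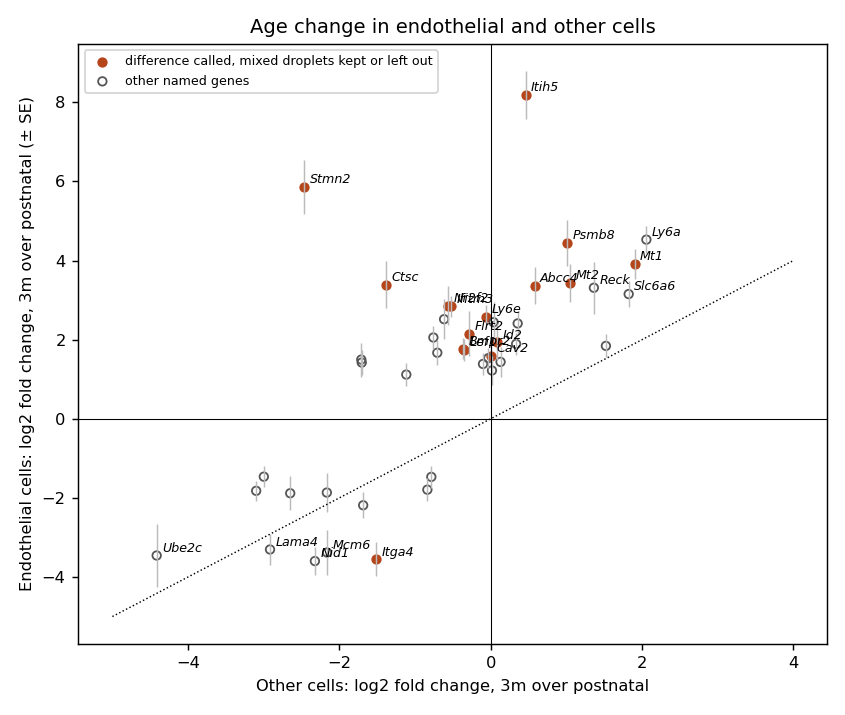
Log2 fold change of 44 named genes with UMIs at both ages, in endothelial cells (vertical axis, ± SE) against the other cells of the same libraries, mixed droplets kept (horizontal axis), with a dotted line for equal change. The 16 filled points are genes whose difference was called with the mixed droplets kept and left out; Itih5 lies highest, at 8.18 in endothelial cells and 0.46 in the others.

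The last comparison asked whether endothelial cells were a like share of the filtered cells at both ages. The share was 2.16% (95% exact interval 1.12 to 3.75) and 0.692% (0.225 to 1.61) in postnatal replicates 1 and 2 and 3.04% (2.11 to 4.22) and 3.76% (2.49 to 5.42) in 3m replicates 1 and 2. Means were 1.43 ± 1.04% (SD, n = 2 libraries) postnatally and 3.40 ± 0.509% (SD, n = 2) at 3m. Both adult libraries lay above both postnatal ones, by 1.97 percentage points on average, and the exact two-sided permutation p was 0.333, the smallest this design allows. The bead enrichment and the excluding genes act on these shares. With the excluding genes ignored, the difference was 0.898 points (exact permutation p = 0.667), and with cells thinned to 2000 UMIs before the rule was applied it was 0.874 points (exact permutation p = 0.667).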

How the data were processed

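RNA was measured with droplet-based 3ʹ single-cell sequencing, in which barcodes mark the cell and UMIs the molecule. The deposited table holds raw counts of UMIs, 1 row per gene and 1 column per barcode, for 4 libraries with 4245 barcodes, runs of a library already merged and without normalization, and all columns were mapped (0 left over). Per the labels and the methods of the study, the authors used Cell Ranger with the mm10 genome for alignment and counting, and Seurat 3.1.1 is listed in the processing notes; counting per molecule removes amplification copies but not free RNA.

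Cells with more than 500 genes and under 10% mitochondrial UMIs were kept. Endothelial cells were selected as described above, no doublet caller was run, and only droplets with more than 2 excluding genes were left out, so cells with some RNA of other types remained. Counts were summed per library and tested with edgeR 4.0.16 in R 4.3.3 (TMM factors, filterByExpr, glmQLFit and glmQLFTest, group as the term). The test of class by age had the library as a block. Sums held 78692 to 451472 UMIs. The code was tested on simulated data first. Alternatives were DESeq2 1.42.0, other scaling and filters, other cell rules, thinned sums and leaving out each library. SE is the absolute log2 fold change divided by the square root of F. Thinning used 1 fixed random draw, and intervals (95%, Clopper-Pearson) and limits for a count of 0 (3 counts) are for counting error alone. Nothing says that the replicates came from separate litters, so p-values measure the spread between libraries. Coordinates are from GENCODE M21 (GRCm38).

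The cells and the gene lists were chosen with earlier results of these data known. Named genes were, per list, up to 4 called genes of lowest adjusted p, and the 10 greatest rises and falls among called genes with at least 50 CPM in the higher group and at least 2 times the level of the other cells. Genes of the cell rule and of the marker lists were named as descriptions, and some further genes after their values were seen. A few genes that this rule chose are not reported here, but they remain in the counts.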

Additional observations from a re-analysis of the deposited data

Results flagged for a closer look

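The change with age differed between endothelial cells and the sum of the other cells of the same libraries, whose cell types differed between the ages, for 848 of 13218 genes by the class by age term of edgeR. Alpl, Ctsc and Stmn2 were called in both classes with opposite signs, with the mixed droplets kept in the other cells or left out. Some named genes had opposite signs only with these droplets kept. Ocln, for example, was higher at 3m in endothelial cells and changed by -1.12 in the other cells with them kept, and by 3.60 with them left out. The fitted difference, endothelial minus other, was 13.63 on the log2 scale for Alpl, 4.75 for Ctsc and 8.41 for Stmn2. Alpl had no UMI in the 17 postnatal endothelial cells, so its fitted value depends on the prior count and is no bound. The 3 differences were called with the mixed droplets left out as well and without each library in turn.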

How the results depend on the processing

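The number of genes called between ages (633) was 181 to 856 when 1 library was left out, 268 with DESeq2, 326 with sums thinned to the shallowest library and 1705 when the excluding genes were ignored, which admits the mixed droplets. Of the 633 calls, 259 of 576 tested were kept without postnatal replicate 1, 596 of 633 without postnatal replicate 2, 290 of 616 without 3m replicate 1, 173 of 629 without 3m replicate 2 and 256 of 630 with DESeq2. Without a scaling factor 723 genes were called, 72.6% of them higher against 57.3% with TMM, and the median of all genes moved by 0.233. With the replicate block it was 661; deviations of the same-numbered libraries had a correlation of 0.00809, and the labels do not say what a number marks, but both replicates 1 had 4 runs, both replicates 2 had 2, and the latter shared 95 barcodes. The class by age count (848) was 238 to 985 with 1 library left out, and leaving out the mixed droplets moved the share of differences above 0 from 59.0% to 45.2%. The difference in endothelial share (1.97 points) was 1.23 to 2.70 without 1 library, 0.898 with excluding genes ignored and 0.874 after thinning. The cycling difference (-8.33 points) was -16.7 to 0 without 1 library, -49.0 without thinning, 2.96 at 1 UMI or more, -18.6 at 3 of 6 endothelial genes and -19.2 with excluding genes ignored. Of 69 named genes, 35 were called under every alternative that tested them, 28 were lost without 3m replicate 2 and 12 each without 3m replicate 1, without postnatal replicate 1 and with DESeq2. The change of Id2 was -0.23 at 3 of 6 endothelial genes. With the mixed droplets left out, the differences between classes of Cavin2, Gata2, Ocln and Slc6a6 turned to -1.96, -0.60, -2.23 and -0.32. Ignoring the excluding genes and leaving out the mixed droplets were chosen after seeing the data, and the cause of each shift was not tested. Depth in postnatal replicate 2 (5 cells) limits every comparison.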

Other observations

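Of 80 tested ribosomal protein genes, 12 were called lower in adult endothelial cells and 0 higher, at a median log2 fold change of -0.61, beside 7.19% lower and 9.67% higher over all genes tested. Of the genes that chose the cells, Itm2a, a membrane protein of endothelium, stood at 1692 and 1784 CPM postnatally and 5108 and 6256 CPM at 3m, and the adhesion protein Pecam1 stood at 328 and 545 CPM and then 554 and 498 CPM. Both are descriptions with no test. Of the 46 cells removed because their barcode was in both postnatal replicate 2 and 3m replicate 2, 45 were in 3m replicate 2.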
